A study of Mus musculus with 12 samples.

Results

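The genes described here were 10 that build the Z-disc and the elastic filaments of the sarcomere or that answer mechanical load in muscle fibers. They were chosen by name and function, and all 10 of them were among the 37748 genes of the count table and passed the filter on low counts. Titin (Ttn) and nebulin (Neb) are the giant filament proteins. Telethonin (Tcap), myotilin (Myot), cypher (Ldb3) and the muscle LIM protein (Csrp3) sit at the Z-disc. Ankrd1, Ankrd2, Xirp1 and Mustn1 are genes whose expression responds to stretch, loading or injury of muscle.

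The data were single-end RNA-seq libraries of gastrocnemius, the large calf muscle, from 12 mice at 13 weeks of age, with 1 library per mouse and 3 mice per group. Control mice (ACTA1-MCM/+) carried only a tamoxifen-inducible Cre recombinase, MerCreMer, driven in skeletal muscle by the ACTA1 promoter. FLExD/+ mice (FLExDUX4/+) carried only the conditional transgene for DUX4, the transcription factor that is misexpressed in facioscapulohumeral muscular dystrophy. Mice of the moderate and severe models (FLExDUX4/+;MCM/+) carried both. By the labels, moderate mice had 1 injection of 5 mg/kg tamoxifen, severe mice had 2 injections of 10 mg/kg, and muscle of both was taken on day 9. They list no tamoxifen for the other groups, so tamoxifen and DUX4 induction cannot be told apart in these comparisons. The labels also describe the FLExD/+ mice as having mild pathology. Recombination in this system is mosaic, so a muscle of either model mixes fibers with and without an induced transgene. Each mouse is a separate animal, and a muscle with fewer fibers cannot be told apart from fibers with less RNA per cell.

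In the sarcomere, actin filaments of neighboring units are cross-linked at the Z-disc. Titin runs from the Z-disc to the M-band and acts as a molecular spring, and nebulin lies along the thin filament. Telethonin caps the end of titin inside the Z-disc, which is also a place where stretch is sensed. The ankyrin repeat proteins Ankrd1 and Ankrd2 bind titin in the I-band and can move to the nucleus. They are known to be induced by denervation, eccentric contraction or stretch, and Ankrd2 is most abundant in slow fibers.

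Total counts ranged from 23796902 to 29136403 per mouse. Levels are given as CPM, in which TMM factors correct the library sizes, and levels of different genes are compared only as TPM, which accounts for length. The TMM factors were 0.706 to 0.724 in control, 0.708 to 0.760 in FLExD/+, 1.06 to 1.13 in moderate and 1.69 to 1.87 in severe libraries. All 11 fast-fiber genes examined were detected in every group, while 4 heart markers summed to at most 2.80 CPM in any mouse. A gene was called when edgeR's quasi-likelihood test gave an adjusted p under 0.05 over 16679 genes and the log2 fold change was at least 0.5 in size.

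The 10 genes moved in both directions. Between moderate and control muscle, 5 were called lower, 3 higher and 2 neither way. Of all genes tested in that comparison, 17% were called lower and 24.4% higher. Between severe and control muscle, 6 of the 10 were lower and 3 higher, against 27.9% and 32.9% of all genes. Titin, nebulin, Tcap, Myot and Ldb3 fell in both models. Ankrd1, Xirp1 and Mustn1 rose in both. Ankrd2 was called lower in the severe model and not in the moderate model, although its difference between the models was not called, and Csrp3 was not called in either. In the severe against the moderate model, 5 genes were called lower and 0 higher, against 18.8% and 17.6% of all genes. The median log2 fold change of the 10 genes was -0.72 in moderate and -2.39 in severe muscle, beside 0.04 and 0.08 over all genes tested. The comparisons with control share the same 3 control mice. Scaling by library size alone raised the median of all genes to 0.65 and 1.39, with 92.1% and 92.2% of called genes higher in place of 59.0% and 54.1%, and then 2 of the 10 genes were lower in the moderate model and 5 in the severe model, with the same count of 3 higher in each.

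**Figure D1:**
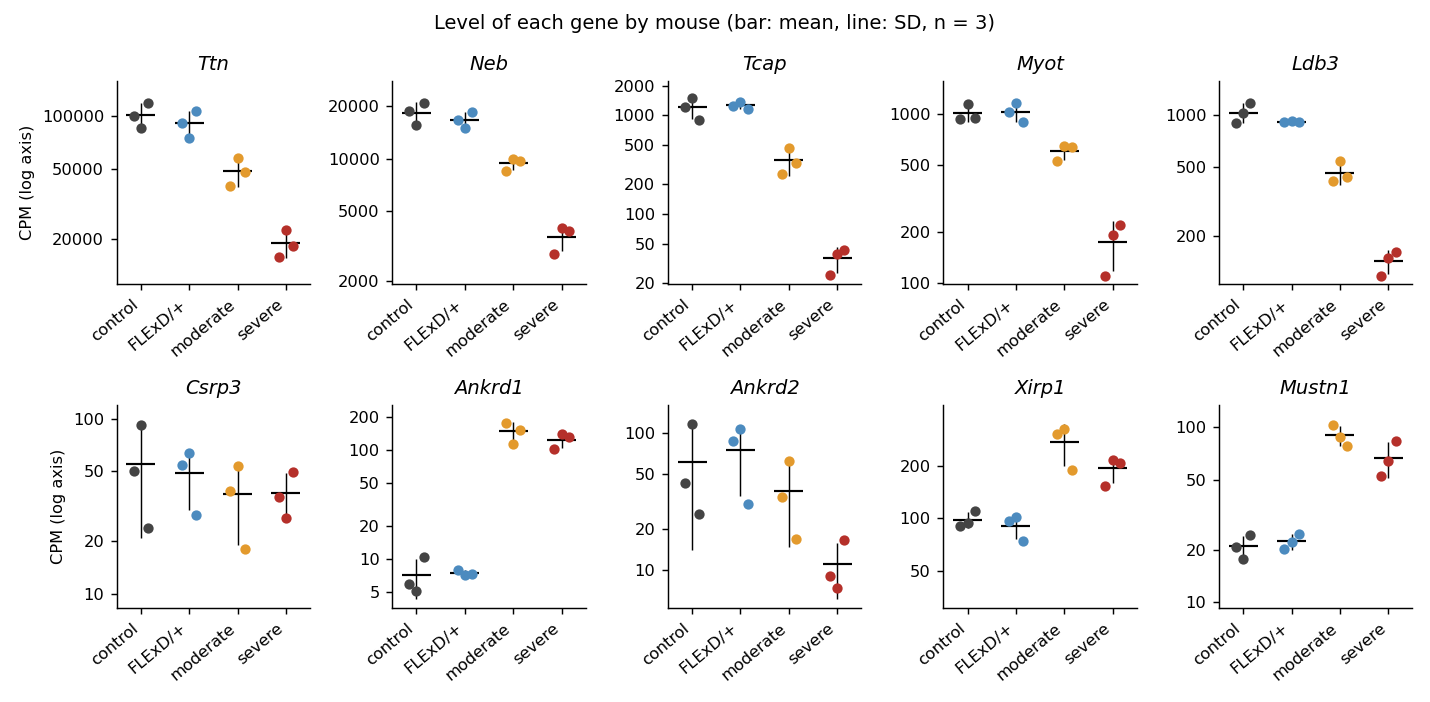
CPM on a log axis of each of the 10 genes in every mouse, by group, with 1 point per mouse, a horizontal bar for the mean and a vertical line for the SD (n = 3). Ttn, Neb, Tcap, Myot and Ldb3 step down from control to moderate to severe without overlap. The share of all genes that separate in this way was not counted. Ankrd1 and Mustn1 sit on a higher level in both models, and Csrp3 and Ankrd2 spread widely within the control group.

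In FLExD/+ against control muscle, 0 of the 10 genes were called by edgeR, and 0 had an unadjusted p under 0.05. DESeq2 also called 0 of them. Of all genes tested, 0% were called higher and 0.006% lower, and 638 of 16679 had an unadjusted p under 0.05. The log2 fold changes of the 10 genes lay between -0.18 and 0.28, with a median of -0.05. The FLExD/+ and control values of every one of the 10 genes overlapped. The share of all genes whose values overlapped was not counted.

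Titin made up 7.26% ± 1.27 (SD, n = 3) of all counts in control muscle and 3.31% ± 0.53 in severe muscle. Its level was 100100, 85120 and 119000 CPM in the control mice, and 90970, 74890 and 107300 CPM in the FLExD/+ mice. It was 40030, 57950 and 47750 CPM in the moderate mice and 15730, 22440 and 18240 CPM in the severe mice. Every moderate mouse lay below every control mouse, and every severe mouse lay below every moderate mouse. The fall was 2.09-fold in the moderate model, a log2 fold change of -1.06 ± 0.24 (SE; adjusted p = 0.00164). In the severe model it was 5.39-fold (-2.43 ± 0.25, adjusted p = 6.1e-07), and severe was lower than moderate by -1.37 ± 0.24 on the log2 scale (adjusted p = 3.1e-04).

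Nebulin followed the same course at a lower count. The control mice had 18640, 15570 and 20700 CPM, the moderate mice 8496, 9971 and 9730 CPM, and the severe mice 2865, 4021 and 3887 CPM. These 3 groups did not overlap. The log2 fold changes were -0.96 ± 0.18 in the moderate model (adjusted p = 5.4e-04) and -2.35 ± 0.19 in the severe model (adjusted p = 6.8e-08). The step from moderate to severe was -1.39 ± 0.19 (adjusted p = 4.0e-05).

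The ratio of titin to nebulin counts within a library does not depend on the scaling between libraries. It was 5.53 ± 0.20 (SD, n = 3) in control, 5.44 ± 0.42 in FLExD/+, 5.14 ± 0.59 in moderate and 5.25 ± 0.49 in severe muscle. The ranges of this ratio overlapped between control and each other group.

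Tcap, which encodes the cap protein of titin, had the largest fall among the 10 genes. Its level was 1223, 1498 and 903.7 CPM in the control mice. It was 256.0, 468.7 and 332.1 CPM in the moderate mice and 24.1, 39.7 and 43.9 CPM in the severe mice. The lowest control mouse was thus above every moderate mouse, and the lowest moderate mouse was above every severe one. The fall was 3.43-fold in the moderate model (log2 fold change -1.78 ± 0.26, adjusted p = 7.0e-05) and 33.7-fold in the severe model (-5.07 ± 0.30, adjusted p = 6.2e-09). Severe muscle was lower than moderate muscle by -3.30 ± 0.28 (adjusted p = 2.2e-06).

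Tcap also fell further than titin within the same libraries. Control muscle had 12.5 ± 5.0 Tcap counts per 1000 titin counts (SD, n = 3), with a range of 7.59 to 17.6. Severe muscle had 1.90 ± 0.45, with a range of 1.53 to 2.41, below the control range. Moderate muscle had 7.15 ± 0.86, and its range of 6.4 to 8.09 overlapped the control range. Ldb3 per 1000 titin counts was 10.2 ± 1.6 in control and 7.71 ± 1.08 in severe muscle, where the highest severe mouse (8.86) was just under the lowest control mouse (8.91). Myot per 1000 titin counts overlapped between control (10.2 ± 2.9) and severe muscle (9.27 ± 2.63).

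Myot encodes an actin-bundling protein of the Z-disc. It was at 934.1, 1143 and 945.3 CPM in the control mice, 523.3, 643.0 and 639.3 CPM in the moderate mice and 111.3, 192.4 and 222.1 CPM in the severe mice. No values overlapped between these groups. The log2 fold change was -0.74 ± 0.21 in the moderate model (adjusted p = 0.00781), the smallest of the called falls in that model. This call was lost with library size alone (-0.14, adjusted p = 0.496), with library size without the 20 largest control genes (-0.44), with limma on TPM under each setting (-0.26) and at a log2 fold threshold of 1. In the severe model it was -2.52 ± 0.22 (adjusted p = 1.4e-07), and from moderate to severe -1.78 ± 0.21 (adjusted p = 1.8e-05).

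Ldb3 encodes cypher, a PDZ and LIM domain protein that binds alpha-actinin. Its level was 891.7, 1026 and 1159 CPM in the control mice, 413.0, 537.9 and 436.7 CPM in the moderate mice and 118.8, 150.8 and 161.6 CPM in the severe mice. The fall was 2.22-fold in the moderate model (-1.15 ± 0.15, adjusted p = 1.5e-05) and 7.14-fold in the severe model (-2.84 ± 0.15, adjusted p = 1.4e-09). The groups did not overlap, and the step from moderate to severe was -1.69 ± 0.15 (adjusted p = 2.1e-06).

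Ldb3 also differed from the other 9 genes in the length of transcript that its reads were assigned to. The ratio of a gene's expected count to its TPM follows the effective length of its transcripts, and it was set to 1 for the control mean after dividing by the median over 8286 genes with at least 100 counts in every mouse. For Ldb3 it was 1.00, 0.993 and 1.00 in the control mice and 0.968, 0.965 and 0.990 in the FLExD/+ mice. It was 1.09, 1.08 and 1.15 in the moderate mice and 1.44, 1.25 and 1.31 in the severe mice. The mean was 1.11 in moderate and 1.34 in severe muscle, above all control mice in both models. An exact two-sided permutation test gave p = 0.1 for each model, the smallest that 3 mice against 3 can give. The same p was reached by far smaller shifts, for Ldb3 itself in FLExD/+ mice, where the ratio was below control, for Neb and Tcap in the moderate model, and for Tcap, Myot, Csrp3, Ankrd2, Xirp1 and Mustn1 in the severe model, so the size of the ratio and not this p sets Ldb3 apart. Of the 8286 genes, 4.95% had a mean ratio at least as high in moderate muscle and 0.857% in severe muscle. For the 9 others the mean ratio lay between 0.972 and 1.03 in the models. Ldb3 has 8 transcripts in the GENCODE annotation, and which of them changed was not tested.

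**Figure D2:**
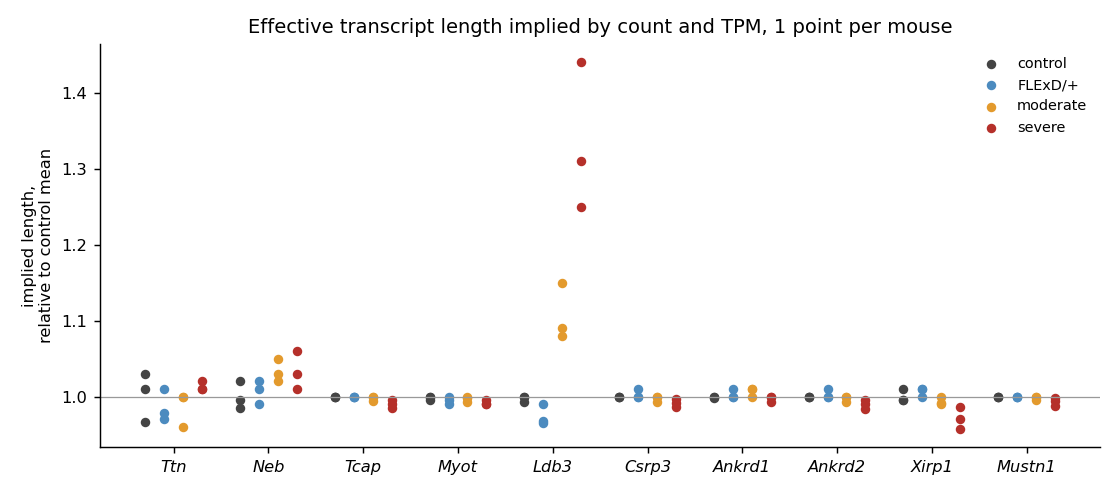
Effective transcript length implied by expected count and TPM, relative to the control mean, for each of the 10 genes with 1 point per mouse, colored by group. Ldb3 rises to 1.08 to 1.15 in the moderate mice and 1.25 to 1.44 in the severe mice, while the other genes stay close to 1.

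Csrp3 encodes the muscle LIM protein, a binding partner of telethonin and alpha-actinin that is more abundant in slow than in fast fibers. It was at 50.1, 92.2 and 23.9 CPM in the control mice, 38.7, 54.0 and 18.1 CPM in the moderate mice and 35.9, 27.1 and 49.5 CPM in the severe mice. The 3 groups overlapped throughout. The log2 fold change was -0.58 ± 0.55 in the moderate model (adjusted p = 0.408) and -0.56 ± 0.55 in the severe model (adjusted p = 0.382), against standard errors of 0.15 to 0.30 for the other Z-disc genes in the severe model. Scaled by library size alone, the severe value was 0.74 and stayed without a call.

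**Figure D3:**
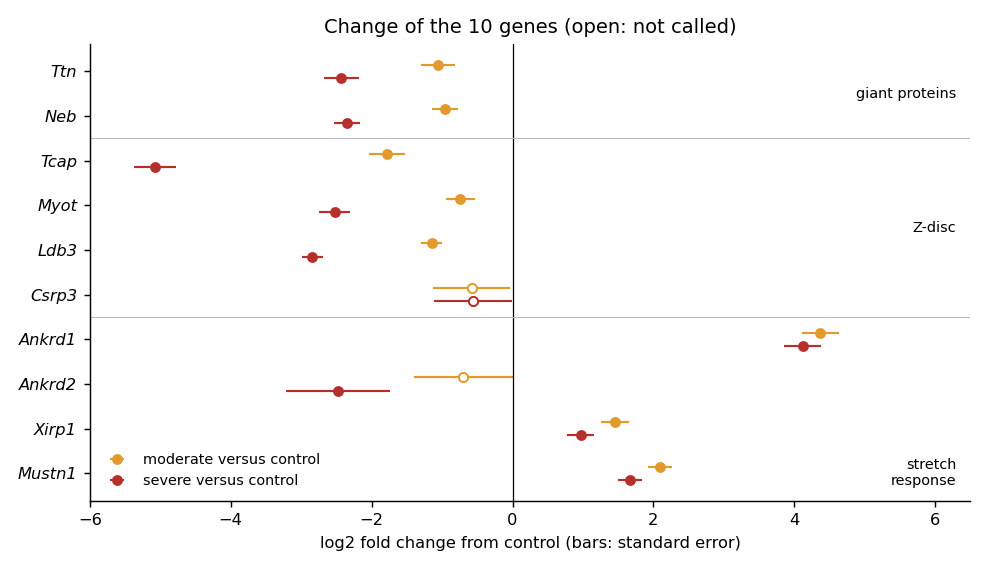
Log2 fold change from control (x axis, bars: standard error) of the 10 genes in the moderate and severe models, grouped by role, with open symbols for genes that were not called. The giant and Z-disc genes other than Csrp3 lie between -0.74 and -5.07, and Ankrd1, Xirp1 and Mustn1 lie between 0.97 and 4.37.

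Ankrd1, also called cardiac ankyrin repeat protein, had the largest rise. Its level was 5.91, 5.06 and 10.3 CPM in the control mice and 7.97, 7.09 and 7.18 CPM in the FLExD/+ mice. It was 175.0, 112.7 and 152.9 CPM in the moderate mice and 100.8, 140.2 and 130.2 CPM in the severe mice. The lowest mouse of either model was far above the highest control mouse. The rise was 20.7-fold in the moderate model (log2 fold change 4.37 ± 0.26, adjusted p = 7.3e-08) and 17.4-fold in the severe model (4.12 ± 0.26, adjusted p = 2.6e-08). The models themselves overlapped, and their difference of -0.25 ± 0.22 was not called (adjusted p = 0.366).

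Promoter sequences of 6 of the 10 genes were found in RefSeq on GRCm38.p6: Ttn, Ldb3, Csrp3, Ankrd1, Ankrd2 and Mustn1. The 250 bases before each start were searched on both strands for the MCAT element CATTCC, bound by TEAD factors, for the CArG box of serum response factor and for the MEF2 site, since these factors are known regulators of sarcomere and stretch-response genes. Ankrd1 was the single gene of the 6 with MCAT matches, at 210 and 123 bases before its start, in chr19:36120037-36120066 and chr19:36119950-36119979 on the minus strand. Of 32851 RefSeq promoters of this length, 12.6% held an MCAT match. Some annotated Ankrd1 transcripts begin further upstream. Ldb3 had a CArG box 35 bases before its nearer annotated start, in chr14:34588697-34588726 on the minus strand, and 1.47% of promoters held one. Ttn had a MEF2 site at 166 bases, in chr2:76982694-76982723 on the minus strand, and 2.92% of promoters held one. The 30 bases around each match are shown so that each match can be read in its context, and capitals mark the match. None of the matches overlapped another.
Ankrd1, MCAT at 210: gtcactgccaaaGGAATGaccctctcacat
Ankrd1, MCAT at 123: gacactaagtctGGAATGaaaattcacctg
Ldb3, CArG box at 35: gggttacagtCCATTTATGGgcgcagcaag
Ttn, MEF2 site at 166: ttctgaaaggCTAAATTTAGcactgccaat

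No match to these 3 elements was found in the windows of Ankrd2, Mustn1 and Csrp3. The looser E-box CANNTG was present in 66.2% of all promoters and in those of Ttn, Csrp3, Ankrd1 and Ankrd2. Binding was not measured in these samples.

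Ankrd2, the paralog of Ankrd1, was not called higher in either model. Its level was 43.3, 115.0 and 25.7 CPM in the control mice, 86.6, 107.3 and 30.1 CPM in the FLExD/+ mice and 33.95, 62.4 and 16.9 CPM in the moderate mice. It was 9.09, 7.45 and 16.6 CPM in the severe mice, all below the lowest control mouse. The log2 fold change was -0.70 ± 0.70 in the moderate model (adjusted p = 0.432) and -2.48 ± 0.74 in the severe model (adjusted p = 0.0136). From moderate to severe it was -1.77 ± 0.73, without overlap but without a call (adjusted p = 0.0696). The call against control was lost without control mouse 1246 (-1.66, adjusted p = 0.0615), without severe mouse 1047 (adjusted p = 0.0586) and without severe mouse 1066 (adjusted p = 0.0525). The count ratio of Ankrd1 to Ankrd2 within a library was 0.044 to 0.400 in control, 1.81 to 9.03 in moderate and 7.86 to 18.8 in severe muscle, so Ankrd1 exceeded its paralog in every mouse of both models and in no control mouse. The same held by TPM.

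Xirp1 encodes Xin, an actin-binding repeat protein known to mark damaged and repairing fibers. It was at 90.6, 94.8 and 110.0 CPM in the control mice, 301.6, 323.5 and 188.9 CPM in the moderate mice and 154.1, 216.7 and 207.3 CPM in the severe mice. All mice of both models exceeded all control mice. The log2 fold change was 1.46 ± 0.20 in the moderate model (adjusted p = 3.5e-05) and 0.97 ± 0.19 in the severe model (adjusted p = 5.6e-04). The annotation places Xirp1 inside a long transcript of Cx3cr1 on the same strand, a chemokine receptor gene of macrophages whose counts were 5.06 to 8.65 in control and 655.7 to 841.1 in severe mice. The expected counts of Xirp1 were exactly whole in all 12 libraries and those of Cx3cr1 were not. Whether reads of the long transcript were counted for Xirp1 was not tested.

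Mustn1, a small nuclear protein gene active in regenerating muscle and skeletal tissue, was at 20.7, 17.7 and 24.1 CPM in the control mice. It was at 102.3, 88.1 and 78.4 CPM in the moderate mice and 52.4, 63.7 and 83.0 CPM in the severe mice. Again, both models lay above all control mice. The rise was 4.30-fold in the moderate model (2.10 ± 0.17, adjusted p = 3.5e-07) and 3.18-fold in the severe model (1.67 ± 0.17, adjusted p = 9.0e-07).

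None of Ankrd1, Xirp1 and Mustn1 was called between the severe and the moderate model. The differences of severe from moderate were -0.49 ± 0.19 for Xirp1 (adjusted p = 0.0475) and -0.43 ± 0.16 for Mustn1 (adjusted p = 0.0368), with overlapping mice, and both missed the fold threshold. Both passed it, as lower in severe muscle, without moderate mouse 1331 (-0.68 and -0.51), and so did Xirp1 without severe mouse 1066 (-0.59) and Mustn1 without severe mouse 1079 (-0.63). Scaled by library size alone, the differences turned positive, to 0.44 for Ankrd1, 0.19 for Xirp1 and 0.25 for Mustn1, and none of the 3 was called.

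By mean TPM, the order in control muscle was Tcap (1634), Ttn (1321), Neb (1070), Ldb3 (469.1), Myot (442.5), Csrp3 (62.7), Ankrd2 (50.6), Mustn1 (36.3), Xirp1 (15.6) and Ankrd1 (5.60). Tcap, Ttn and Neb overlapped as neighbors in this order, as did Ldb3 and Myot, and Csrp3, Ankrd2 and Mustn1. Xirp1 and Ankrd1 stood apart at the bottom. In severe muscle the order was Ttn (554.9), Neb (463.5), Mustn1 (263.5), Ankrd1 (222.8), Myot (176.2), Ldb3 (113.1), Tcap (111.8), Csrp3 (97.4), Xirp1 (71.6) and Ankrd2 (20.8). From Mustn1 down to Xirp1 every gene overlapped its neighbor, while Neb lay above Mustn1 and Ankrd2 lay below Xirp1 in all mice. Tcap thus moved from rank 1 to rank 7, Ankrd1 from rank 10 to rank 4 and Mustn1 from rank 8 to rank 3. FLExD/+ muscle kept Tcap, Ttn and Neb as the first 3 and Mustn1, Xirp1 and Ankrd1 as the last 3.

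Csrp3 and Ankrd2 had the largest coefficients of variation of the 10 genes in control muscle, 62.2% and 77.1%. A slow-fiber score, the mean log2 CPM of 8 slow-fiber genes such as Myh7 and Tnnt1, also differed between control mice. It was 8.15 in control mouse 1246, 7.07 in mouse 1127 and 5.74 in mouse 1349, the same order as for Csrp3 (92.2, 50.1 and 23.9 CPM) and Ankrd2 (115.0, 43.3 and 25.7 CPM). The score of the other groups ran from 6.16 to 8.35 in FLExD/+, from 5.14 to 6.46 in moderate and from 3.77 to 4.61 in severe mice. In the moderate and severe groups, Csrp3 and Ankrd2 again followed the order of the score. In FLExD/+ mice, the lowest mouse was the same for all 3 measures. The low scores of severe mice rest on 3 of the 8 genes, Myh7 (-6.86), Myl2 (-8.86) and Myl3 (-8.12 on the log2 scale), while the other 5 were not called against control and Tnni1 was at 1.22. The summed CPM of the 8 genes overlapped between moderate (432 to 914) and severe mice (485 to 641).

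Severe mice kept 27.1 to 49.5 CPM of Csrp3 at scores below those of every other mouse, whereas Ankrd2 was lowest there. Csrp3 counts per Ankrd2 count were 0.802 to 1.16 in control, 0.866 to 1.14 in moderate and 2.99 to 3.95 in severe muscle. With the score as a covariate in the fit, the severe value was 1.65 for Csrp3 (adjusted p = 0.00129) and 0.37 for Ankrd2. The score of the severe mice lies outside that of the other groups, so this fit extends beyond the scores that the groups share, and in these mice the score follows Myh7, Myl2 and Myl3.

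**Figure D4:**
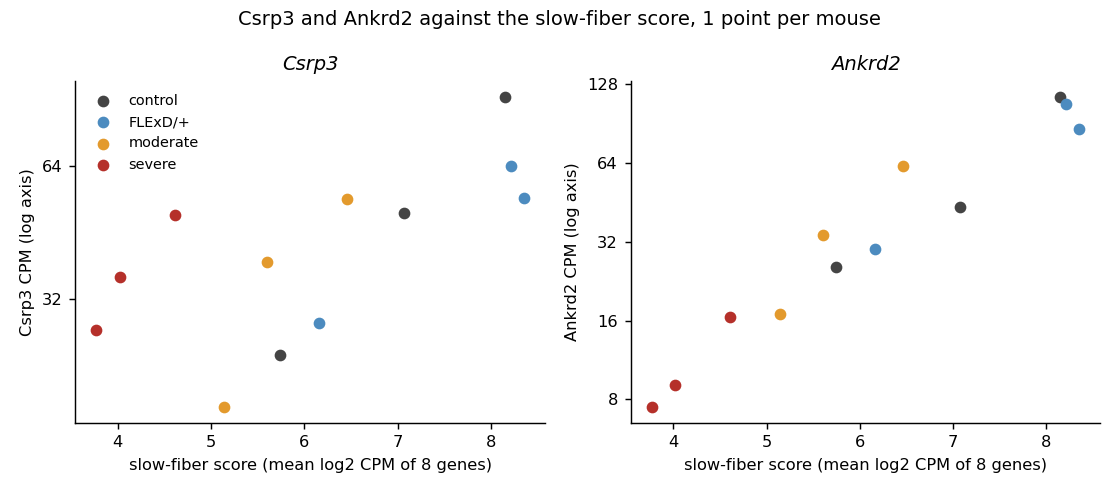
CPM of Csrp3 and Ankrd2 (log axes) against the slow-fiber score, the mean log2 CPM of 8 slow-fiber genes, with 1 point per mouse colored by group. Ankrd2 lies along the score over all 12 mice, whereas the 3 severe mice have 27.1 to 49.5 CPM of Csrp3 at scores of 3.77 to 4.61.

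Of 16 further Z-disc genes, 7 were lower and 2 higher in the moderate model, against 17% and 24.4% of all genes tested. Their median log2 fold change was -0.87. In the severe model 12 were lower and 1 higher, against 27.9% and 32.9% of all genes tested, with a median of -1.61. Scaled by library size alone, 7 were lower and 4 higher in the severe model, beside 1070 and 12580 of all 16679 genes. The largest fall in the moderate model was that of Nexn, an actin-binding protein (-2.28 ± 0.12), followed by Actn3, the alpha-actinin of fast fibers (-2.26 ± 0.22), and Myoz3, a calsarcin (-2.03 ± 0.19). In the severe model Myoz3 (-4.97 ± 0.24) and Actn3 (-4.59 ± 0.25) fell most, followed by Myoz1, another calsarcin (-3.60 ± 0.23). Flnc, a filamin that is recruited to damaged sarcomeres, rose in both models (1.03 ± 0.15 and 0.74 ± 0.15). Pdlim3 rose in the moderate model (0.86 ± 0.25).

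The next list held 19 genes for M-band proteins, titin ligands and thin-filament regulators. Beside the same shares of all genes, 12 were lower and 1 higher in the moderate model (median -0.95). In the severe model 14 were lower and 0 higher (median -1.56). Scaled by library size alone, 5 were lower and 1 higher in the moderate model, and 8 lower and 4 higher in the severe model. Of all 16679 genes, 752 were lower and 8764 higher at that scaling in the moderate model, and 1070 and 12580 in the severe model. Tmod4, which caps thin filaments, had the largest fall (-1.70 ± 0.16 and -3.91 ± 0.18). Myom2, a myomesin that links titin to the M-band, fell by 1.60 and 2.86 on the log2 scale. Capn3, the protease bound to titin, fell by 1.58 in the moderate model, and Trim54, a titin-binding ubiquitin ligase, fell by 3.11 in the severe model. Klhl41, a stabilizer of nebulin, rose in the moderate model (0.65 ± 0.14).

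The 18 other genes of stretch and mechanical signaling were called in both directions. In the moderate model 8 were higher and 4 lower, against 24.4% and 17% of all genes tested, with a median of 0.39. In the severe model 9 were higher and 5 lower, against 32.9% and 27.9% of all genes, with a median of 0.49. Ankrd23, the third ankyrin repeat protein of this titin-binding family, had the largest fall, from 2473 ± 327 CPM in control to 240.2 ± 19.8 in moderate and 59.8 ± 11.3 in severe muscle (SD, n = 3). Its log2 fold changes were -3.36 ± 0.17 and -5.37 ± 0.19. Xirp2, the paralog of Xirp1, fell by 1.01 and 1.85 on the log2 scale. Scaled by library size alone, its values were -0.40 without a call in the moderate model and -0.56 with a call in the severe model. Serum response factor (Srf) fell by 0.88 and 1.48, but by 0.27 and 0.18 without a call when scaled by library size alone.

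The largest rises of that list in the moderate model were those of vinculin (Vcl), a focal adhesion protein (1.39 ± 0.12), Ccn1, a known target of YAP (1.38 ± 0.25), and Wwtr1, which encodes TAZ (1.30 ± 0.11). In the severe model they were those of the LIM proteins Zyx (1.73 ± 0.15) and Ajuba (1.72 ± 0.21) and of the filamin Flna (1.72 ± 0.13). In FLExD/+ muscle 0 genes of these 3 lists were called.

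**Figure D5:**
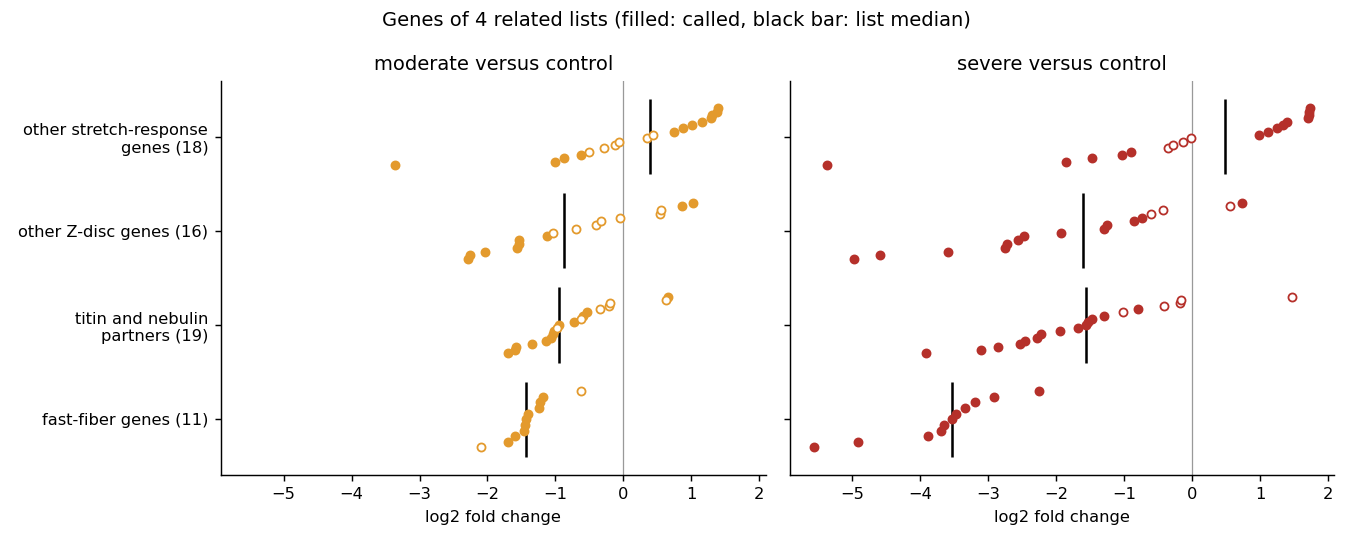
Log2 fold change of each gene of 4 related lists in moderate and severe against control muscle, 1 point per gene, filled where called, with a black bar at the median of the list. Medians of the fast-fiber genes are -1.43 and -3.53, those of the Z-disc and partner lists lie between -0.87 and -1.61, and those of the stretch-response list are 0.39 and 0.49.

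The 11 fast-fiber genes had a median of -1.43 in the moderate model, where 9 were lower, against 17% of all genes tested. In the severe model the median was -3.53 and 11 were lower, against 27.9% of all genes. This list also held Acta1 and Ckm, which are not confined to fast fibers, so its counts are partly those of muscle in general. Counts of titin per 1000 fast-fiber counts were 470.0 to 535.0 in control and 939.0 to 1400 in severe muscle, without overlap. For Neb the ranges were 87.4 to 93.1 and 200 to 255.0, for Myot 4.25 to 6.79 and 9.58 to 11.4, and for Ldb3 4.18 to 6.09 and 7.51 to 10.6. Tcap went the other way, from 4.06 to 8.89 in control to 1.97 to 2.26 in severe muscle. In severe muscle, titin, nebulin, Myot and Ldb3 therefore fell less than the summed fast-fiber counts, and Tcap fell more. In moderate muscle the ranges of titin (551 to 745), Neb (112 to 128) and Myot (7.26 to 8.27) also lay above control. Those of Ldb3 (5.04 to 6.92) and Tcap (3.55 to 6.03) overlapped the control range. In FLExD/+ muscle the range of Neb (93.7 to 94.8) also lay just above control, while those of titin, Myot, Ldb3 and Tcap overlapped it.

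Markers of other cells moved with the models. The shares of all genes called higher were 24.4% and 32.9% in the moderate and severe models, and those called lower were 17% and 27.9%. All 6 macrophage markers rose in both, and their summed level was 59.6 to 74.2 CPM in control, 344 to 437 in moderate and 750 to 857 in severe muscle. Fibroblast markers summed to 625 to 1540 CPM in control and 3820 to 4940 CPM in severe muscle, where 3 of 5 were called higher and 1 lower. Tendon markers summed to 70.3 to 147 CPM and 333 to 413 CPM, with 2 of 4 higher and 2 lower. Of 7 genes of myoblasts and regenerating fibers, 6 rose in moderate and 7 in severe muscle, and their sum was 22.3 to 29.7 CPM in control, 334 to 595 in moderate and 1260 to 1780 in severe mice. Smooth muscle markers summed to 55.8 to 93.8 CPM in control and 124 to 168 CPM in severe muscle, with 1 of 4 higher and 2 lower. All 4 endothelial markers fell in the severe model, where 3 of them turned positive when scaled by library size alone. The part of these cells in the rises of Ankrd1, Xirp1 and Mustn1 was not tested.

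For each of the 10 genes, the Pearson correlation of log2 CPM over the 12 mice was ranked among 12307 genes with a mean of at least 50 counts. These correlations are descriptive, since they are carried largely by the step between groups and the points share the scaling of the library. Neb was closest to Camk2a (r = 0.998) and Syngr2, Ttn to Nos1 (0.994) and Camk2a, and Ldb3 to Smyd1 (0.997) and Rabl6. Myot was closest to Acot13 and Rnls (both 0.997), and Tcap to 3425401B19Rik and 2210408F21Rik (both 0.997). Ankrd1 was closest to Wdr67 (0.997) and Plp2, Mustn1 to Ypel1 and Itm2c (both 0.991), and Xirp1 to Tbc1d10b (0.985) and Flnc (0.973). Ankrd2 was closest to Fhl1 (0.991), which encodes a LIM protein that binds titin, and to Lmcd1 (0.971). Csrp3 had the weakest neighbors, Btd (0.874) and Myh7b (0.868). Within the 10 genes, Ttn and Neb were nearest to each other (0.994), and Ankrd1 and Mustn1 were nearest to each other (0.977).

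In the GENCODE annotation of GRCm38, Ttn (ENSMUSG00000051747) spans chr2:76703980-76982547 on the minus strand, with 347 exons in its longest coding transcript. An antisense gene, Gm13938, lies inside it, and reads of the 2 cannot be told apart where a library is not stranded. Neb (ENSMUSG00000026950) lies on the same chromosome and strand at chr2:52136647-52378474. It is overlapped by the antisense gene Gm13522, by the miRNA gene Gm22095 on the other strand and by Gm13521, a processed pseudogene on the same strand. Ldb3 (chr14:34526603-34588682, minus strand) and Mustn1 (chr14:30879200-30881610, plus strand) share a chromosome, as do Ankrd1 (chr19:36111961-36120099, minus strand) and Ankrd2 (chr19:42036000-42045110, plus strand). Tcap is at chr11:98383811-98384953 on the plus strand with 2 exons. Csrp3 is at chr7:48830398-48848033 and Xirp1 at chr9:120013755-120023598, both on the minus strand.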

How the data were processed

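Poly(A) RNA of 12 gastrocnemius muscles, 3 mice per group, was sequenced as single 50-base reads. The authors mapped reads to a merged annotation of mm10 with RSEM 1.2.4 and Bowtie, mapped the rest with TopHat2 2.0.8b (versions from the submitters' processing notes), and deposited expected counts per gene without normalization. The authors also deposited TPM, from the same estimates. RSEM divides reads between genes and transcripts, so expected counts need not be whole.

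Expected counts were rounded and tested with edgeR 4.0.16 in R 4.3.3: filterByExpr, TMM factors, 1 robust quasi-likelihood fit of the 4 groups, Benjamini-Hochberg adjustment over 16679 genes. Genes were called at an adjusted p under 0.05 and a log2 fold change of 0.5 or more in size. Groups came from the labels. With 3 mice against 3 an exact test cannot give p below 0.1.

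Alternatives were median-of-ratios factors, library size alone or without the 20 largest control genes, DESeq2 1.42.0, limma 3.58.1 on log2(TPM + 1) or log2(TPM + 0.1), other filters and thresholds, fits of 2 groups, unrounded counts, a slow-fiber covariate and leaving out each mouse. Of these steps only the edgeR fit was tested on simulated data. The simulation changed few genes and held no shift between libraries like that of the TMM factors here.

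The genes, lists and tests were chosen with earlier results of these data known, and the ratios of counts within a library after their values were seen. All 10 genes are named. From the Z-disc, partner and mechanical signaling lists, the 3 largest called rises and falls in each model are named, and for each of the 10 genes the 2 most correlated genes. List genes were matched by Ensembl identifier through GENCODE M21. Figures used matplotlib 3.10.9.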

Additional observations from a re-analysis of the deposited data

How the results depend on the processing

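In the severe model, the falls of Ttn, Neb, Tcap, Myot and Ldb3 kept their call under every alternative run. So did the rises of Ankrd1 and Mustn1, while that of Xirp1 (0.97) was lost at a log2 fold threshold of 1. The sizes were less stable than the calls. With library size alone the severe falls shrank to -1.13 for Ttn, -1.05 for Neb, -3.78 for Tcap, -1.23 for Myot and -1.54 for Ldb3. The severe rises grew to 5.42 for Ankrd1, 2.26 for Xirp1 and 2.96 for Mustn1 without the TMM factors. The 3 rises of the moderate model, the 0 calls in FLExD/+ mice and the 5 falls from moderate to severe muscle held throughout. In the moderate model 5 genes were called lower, but 2 with library size alone and 3 with a log2 fold threshold of 1. With limma on log2(TPM + 1) the count was 4 with the filter on low counts and 2 without it. With library size alone the moderate values were -0.46 for Ttn, -0.36 for Neb and -0.14 for Myot, and limma on log2(TPM + 1) gave -0.26 for Myot. With limma on log2(TPM + 1) the median of all genes was 0.29 in moderate and 0.79 in severe muscle, against 0.04 and 0.08.

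The fall of Ankrd2 in severe muscle was -1.18 with library size alone and -1.04 with limma on log2(TPM + 1), in both cases without a call. With the slow-fiber covariate it turned to 0.37, Csrp3 turned to 1.65, and 1 gene instead of 0 was called higher in severe than in moderate muscle. Ankrd2 was called lower in severe than in moderate muscle by DESeq2 (adjusted p = 0.0265) and in the fit of those 2 groups (adjusted p = 0.0322). Leaving out 1 mouse at a time gave 480 values for the 10 genes in the 4 comparisons, of which 472 kept their call. Many of these fits left out a mouse of a group outside the comparison, which could move a call only through the shared fit. The share of kept calls therefore overstates how stable the calls are to the mice compared. No paired analysis was possible because each mouse belongs to a single group and the labels list no pairing between mice. With 3 mice per group, small changes of variable genes such as Csrp3 were not detectable.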
